A study of Mus musculus with 6 samples.

Results

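The comparison set NKp46+ cells of the intestine against NKp46+ cells of the skin, the pair of barrier tissues in a series of 6 arrays, and used the 4 arrays of those tissues, 2 per tissue. Arrays were chosen by the tissue named in their titles, although the comparison itself was chosen with earlier results of these data known. All mice were 12-week-old males of the C57BL/6 strain carrying the RAG-2-KO genotype, untreated as far as the labels say, and the 2 spleen arrays of the series came from the same kind of mouse. Loss of RAG-2, an enzyme of antigen receptor rearrangement, leaves mice without T or B cells, so intestine, skin and spleen cells alike came from hosts that lack them. The cells were sorted as CD45+, CD3- and Nkp46+ and, as the labels spell it, NK11+, from the lamina propria of the gut or from skin, and the labels do not say how many mice gave each sample. The series title asks what ROR gamma-t, a nuclear receptor of innate lymphoid cells, does in NKp46+ cells of gut and skin, but these 4 arrays hold no ROR gamma-t mutant and compare tissues alone.

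NKp46 is an activating receptor carried by natural killer (NK) cells and by part of the innate lymphoid cells (ILCs). Conventional NK cells depend on the transcription factors T-bet and Eomes, kill through perforin and granzymes, and leave tissues for blood along gradients of sphingosine-1-phosphate. Group 1 ILCs share T-bet with them but stay in tissue, while group 3 ILCs (ILC3s) of the gut depend on ROR gamma-t and IL-7 and make IL-22 and GM-CSF. Retention in tissue goes along with CD69, which opposes S1PR1, an egress receptor for sphingosine-1-phosphate, and with the integrin CD103, which binds E-cadherin on epithelium.

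Each array gave a background-subtracted signal and a detection p-value for 46643 probes. Values are the deposited signals, scaled to a mean of 83.1 on each array, and differences are intestine minus skin on the log2(signal + 16) scale after quantile normalization, each given ± its SE from limma (n = 2 arrays a side). That scale understates the change of dim genes. Where neither array of the lower tissue detected a gene, the ratio is given as "at least N-fold", the mean of the brighter tissue over the higher of the dim probe's own value and the lowest detected signal of each array. Among the genes named below, Anxa1, Birc5, Cx3cr1, Gprin3, Kif22, Mylpf, Pole and Rrm2 were detected on 1 of 2 intestine arrays, and Ccr7, Cd38, Hspa1a, Il4, Isg20, Rag2 and Tgm2 on 1 of 2 skin arrays. Detected probes (detection p under 0.01) numbered 16549 and 15279 for intestine, 15196 and 16477 for skin and 18266 and 18530 for spleen. Before the deposited scaling the mean signals were 82.7 and 50.9 in intestine and 43.7 and 53.4 in skin, so intestine replicate 1 was the brightest of these 4. Replicates correlated at 0.985 in intestine and 0.991 in skin over the genes tested, and intestine arrays correlated with skin arrays at 0.903 to 0.920. With 2 arrays per tissue the precision is limited, and no label traces the replicates to separate mice, so p-values here reflect the spread of these samples alone, which may be technical. Because whole sorted samples were measured, fewer cells of a type and less RNA per cell cannot be told apart.

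Of 11874 genes tested 45.3% passed limma's test at a Benjamini-Hochberg adjusted p of 0.05, 5381 in all. Of these 2253 (19.0% of the genes tested) were higher in intestine and 3128 (26.3%) higher in skin, and the median difference over all genes was -0.09. The share of calls that were higher in intestine was 41.9%, against 31.1% of 5838 calls with the deposited scaling alone, under which the median difference was -0.21. Differences of at least 2-fold among the called genes numbered 834 (7.02%) toward intestine and 703 (5.92%) toward skin. Which of these is larger depends on the processing: it was 727 against 853 with median scaling, 682 against 944 with the deposited scaling alone and 1158 against 1196 with an offset of 4. On the scale used here 210 genes were higher in intestine and 69 in skin at 4-fold, and 58 and 8 at 8-fold. The total moved too: with 4 in place of 16 the 2-fold total went from 1537 to 2354, and with 64 to 690. Both arrays of a tissue detected the gene's probe and neither array of the other did so for 380 genes in intestine and 367 in skin. Slides 1 and 2 each held 1 array of every tissue. Both arrays of one tissue lay above both of the other for 69.9% of the genes tested, with intestine above for 29.2% and skin above for 40.8%.

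**Figure D1:**
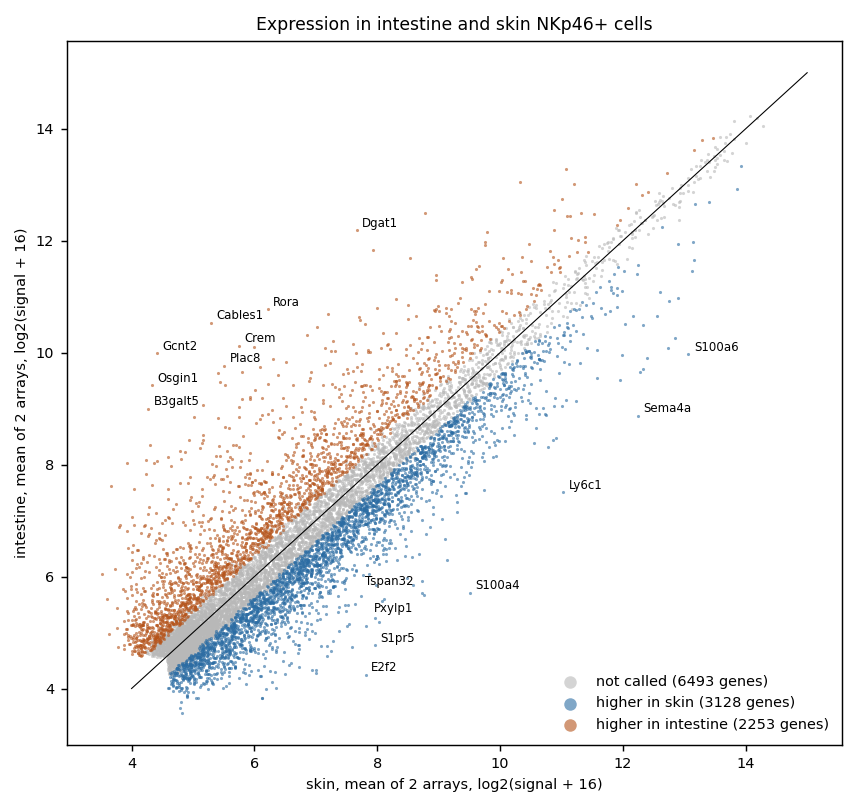
Mean log2(signal + 16) of 11874 genes on the 2 skin arrays (horizontal axis) and the 2 intestine arrays (vertical axis), with called genes coloured by the tissue in which they were higher and the line of equal level drawn. The 2253 genes higher in intestine reach farther from the line than the 3128 higher in skin, and the 8 largest differences each way are named.

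The genes behind the sort and the deletion were looked at first. Ncr1, which encodes NKp46, was detected on all 4 arrays at low signals of 10.8 and 14.7 in the gut cells and 33.1 and 32.4 in the skin cells. Both skin values lie above both intestine values (-0.70 ± 0.18, limma adjusted p = 0.0104), a call lost without skin replicate 1 (adjusted p = 0.0521). Klrb1c, the gene of the NK1.1 antigen, gave 978 and 1073 in the gut cells and 2125 and 2003 in the skin cells. It was 1.97-fold lower in intestine (-0.98 ± 0.14, adjusted p = 0.000391), again with no overlap. Ptprc, the gene of CD45, gave 164 and 145 in intestine against 137 and 179 in skin and did not pass (0.15 ± 0.15, adjusted p = 0.446), and its 2 other probes gave -0.58 and -0.31. The CD3 gene Cd3e was detected on none of the 4 arrays (-0.286 and -0.350 in intestine and -2.30 and 2.54 in skin). Rag2 gave 7.84 and 13.2 in the gut cells and 0.341 and 9.50 in the skin cells, near background, but where the probe lies relative to the deletion is not known here, so these values do not test the genotype. It did not pass (0.46 ± 0.20, adjusted p = 0.0896), although it did when slide was blocked (adjusted p = 0.0229) or skin replicate 2 left out (0.75, adjusted p = 0.0162). Other markers of the labelled cell type, Klrk1, Klrd1, Tyrobp, Il2rb, Prf1, Nkg7, Tbx21, Eomes and Id2, were detected on all 4 arrays.

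Many markers of other cell types were detected on none of the 4 arrays. Each of these arrays detected only 32.6 to 35.5% of all probes, so a lack of signal is common among features of any kind. By gene, 11874 of 31469 passed the detection filter. Both are other measures than the counts below, which are of genes that no array detected. Without that share over all genes, the counts do not tell which lists are depleted. Of 31 macrophage, monocyte and dendritic cell genes 23 were detected on no array, among them Csf1r, Adgre1, Lyz2 and C1qa, and the summed signal of that list was 519 to 561 in intestine and 584 to 604 in skin. Of 41 gut epithelial genes 28 were detected on none, including Epcam, Fabp1 and Krt8, with sums of 223 to 314 in intestine and 228 to 261 in skin. Of 38 keratinocyte, hair follicle and melanocyte genes 25 were detected on none, including Krt5 and Krt14, with sums of 112 to 175 in intestine and 200.04 to 226 in skin. Fibroblast, stroma and muscle genes lacked Col1a1, Col1a2 and Col3a1 on all 4 arrays (12 of 26 undetected, sums 166 to 176 in intestine and 178 to 249 in skin), and endothelial genes lacked Cdh5, Tek and Vwf (10 of 17, sums 615 to 807 in intestine and 256 to 307 in skin). Of the 12 neutrophil genes 8, with S100a8 and S100a9, were undetected (sums 62.3 to 90.9 in intestine and 36.6 to 47.6 in skin), as were 9 of 14 mast cell and basophil genes, with Cpa3 and Mcpt4 (sums 1440.4 to 1459 in intestine and 268 to 338 in skin, of which Kit alone gave 1404 and 1370.3 in intestine and 115 and 107 in skin). Erythroid and platelet genes summed to 2615 to 3376 in intestine and 1182 to 1439 in skin, with 10 of 19 undetected, Klf1 and Pf4 among them. Of 18 B and plasma cell genes 11 were undetected, among them Cd79a and Pax5 (sums 1000.2 to 1334 in intestine and 1119 to 1262 in skin). Group 2 ILC genes lacked Il5 and Il17rb (6 of 17 undetected, sums 731 to 929 in intestine and 896 to 1022 in skin).

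A few single markers within those lists did pass, where 45.3% of all genes tested did so. Cdh1, which encodes E-cadherin, gave 61.1 and 84.5 in intestine against 8.96 and 5.98 in skin and was at least 4.25-fold higher in intestine, while the other gut epithelial genes tested stayed between -0.55 and 0.28. Of those Lgals4 was called, higher in skin (-0.55), but not without intestine replicate 1 or either skin replicate. The macrophage and dendritic cell list had 2 of 6 tested genes higher in each tissue, the B cell list 1 of 4 higher in intestine (Cd79b), the neutrophil list its 1 tested gene (Mmp9) and the mast cell list 2 of 4 higher in intestine (Kit and Hdc) and 1 in skin (Cma1). The erythroid list had 2 of 7 higher in intestine (Car2 and Tfrc) and 1 in skin (Gp1bb), the keratinocyte list 1 of 6 higher in skin (Sbsn), and the stroma list 1 of 7 in each tissue (Col6a2 and Mylpf). The Col6a2 call (0.40) was lost under 10 of the alternatives, among them the omission of either skin replicate. Pecam1, an adhesion molecule of endothelium and of leukocytes, was higher in intestine (1.65 ± 0.17). Zbtb46, known from dendritic cells, was also higher there (2.25 ± 0.15, other probe 1.49). The other 4 endothelial genes tested were not called. Of 16 T cell genes on the array 8 were undetected, including Cd3e, Trac and Cd4, and the list summed to 3128 to 3253 in intestine and 4519.5 to 4573 in skin. Within it Ctla4 (3.11 ± 0.20), Cd3g (2.68 ± 0.25), Cd8a (1.09) and Icos (2.05 ± 0.13) were higher in intestine, Cd8b1 (-1.14 ± 0.13) and Thy1 (-1.05 ± 0.12) were higher in skin, and Cd28 (-0.04) and Cd3d, which encodes another CD3 chain (0.13), were not called. Group 2 ILC genes had 3 of 8 tested members higher in intestine (Areg, Icos and Il4), 1 higher in skin (Klrg1) and 4 not called. The part that other cells play in the differences below was not tested.

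Of the 14 largest differences toward the intestine 6 were in genes that neither skin array detected. Gcnt2, a glycosyltransferase that branches poly-N-acetyllactosamine chains, gave 894 and 1055 in the gut cells and 7.40 and 4.95 in the skin cells, where it was not detected, a difference of at least 42.9-fold, although its 2 other probes gave only 0.29 to 2.56 on the log2 scale. Cables1, a binding partner of cyclin-dependent kinases, gave 1444 and 1513 in the gut cells and 16.2 and 32.8 in the skin cells (5.24 ± 0.20, or 37.9-fold). Osgin1, an oxidative stress response gene, was at 570.3 and 705 in intestine and not detected in skin (at least 28.9-fold). For these 3 genes the lower intestine value was far above the higher skin value, but lack of overlap was a condition of their choice. B3galt5, a galactosyltransferase, followed at 465 and 467 in intestine against 4.59 and 3.25 in skin (at least 21.5-fold). Rora encodes a nuclear receptor of ILCs and of the circadian clock, and gave 2093 and 1446 in the gut cells and 56.8 and 55.97 in the skin cells (4.56 ± 0.19, 23.6-fold). Dgat1, which makes triglycerides, reached 4495 and 5557 in the gut cells and 156 and 214 in the skin cells (4.52 ± 0.18, 22.95-fold). The limma adjusted p of these 6 genes ran from 9.05e-08 to 2.5e-07.

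Next in size came Crem, a cyclic AMP-responsive transcription factor (4.38 ± 0.17), Plac8 (4.26 ± 0.35), the interferon-inducible membrane protein gene Ifitm2 (4.22 ± 0.14) and Hk2, the hexokinase that opens glycolysis (4.12 ± 0.17). Plac8 had the widest spread among them, with skin signals of 13.7 and 56.5. Calca, the gene of calcitonin and of the neuropeptide CGRP, gave 215 and 217 in the gut cells and -4.83 and 2.51 in the skin cells (at least 11.04-fold, other probe 0.75). The immunoglobulin heavy-chain variable segment Igh-VJ558 gave 239.6 and 327 in the gut cells and 3.005 and 5.62 in the skin cells, in mice that cannot rearrange it (at least 13.8-fold, other probe 2.36). A430006M23Rik (4.04 ± 0.16) and Plekhd1 (at least 8.30-fold) closed the 14 largest. For dim genes such as Calca the fitted value depends on the offset (4.11 with 16, 6.42 with 4 and 2.29 with 64), so the bound is the value to read.

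**Figure D2:**
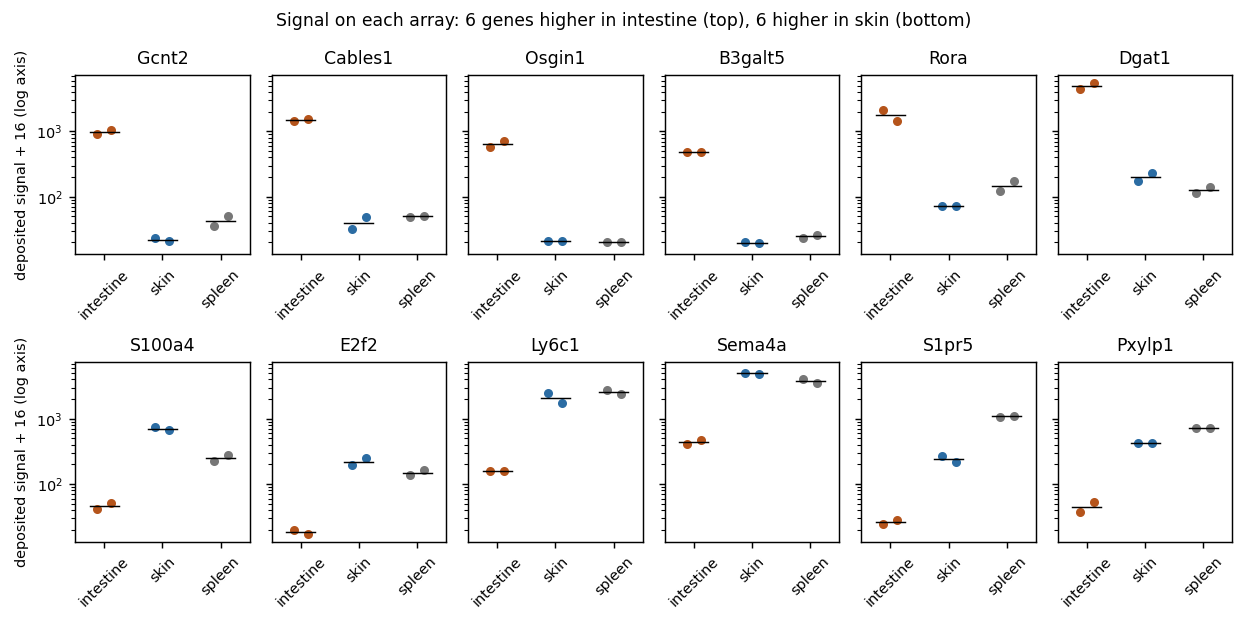
Deposited signal plus 16 (log axis) on each array for the 6 genes with the largest difference toward intestine (upper row) and toward skin (lower row), with spleen for reference. Points are arrays and lines are the means of their logarithms. In each panel both arrays of the higher barrier tissue lie above both of the other, which was a condition for choosing these genes. Rora stands at 2093 and 1446 in intestine and 56.8 and 55.97 in skin, and S100a4 at 26.1 and 34.7 in intestine and 726 and 657 in skin.

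The largest differences toward the skin were smaller. S100a4, a calcium-binding protein of motile cells, gave 26.1 and 34.7 in the gut cells and 726 and 657 in the skin cells (-3.79 ± 0.16, 13.9-fold higher in skin). E2f2, a transcription factor of the G1 to S transition, was not detected in intestine and gave 180.1 and 232 in skin (at least 9.53-fold, other probe -1.83). Ly6c1, a surface antigen of mature NK cells, gave 142 and 143 in the gut cells and 2437 and 1698 in the skin cells (-3.52 ± 0.18). Skin and intestine values of these genes did not overlap, but this was a condition for the 14 largest differences each way. Sema4a, a semaphorin that binds T and myeloid cells, gave 393 and 449.8 in the gut cells and 5065 and 4843 in the skin cells (-3.38 ± 0.15). S1pr5, which encodes another egress receptor of NK cells, gave 8.22 and 12.6 in the gut cells and 255 and 203 in the skin cells (-3.19 ± 0.15, 9.10-fold higher in skin). Its skin level was itself below that of the spleen arrays (1052 and 1098). S100a6 (-3.10 ± 0.21), the tetraspanin gene Tspan32 (-3.02 ± 0.13, other probe -1.47), Pxylp1 (-3.10 ± 0.17, other probe -0.26), the platelet-derived growth factor gene Pdgfb (-2.84 ± 0.14), Niban2 (-2.74 ± 0.17) and Klhl30 (at least 5.43-fold) followed, and 3 mitotic genes described below made up the rest of the 14. The limma adjusted p of the skin genes of this paragraph ran from 2.31e-07 to 3.2e-06.

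Genes of tissue residency were higher in the gut cells and those of NK maturation and egress in the skin cells. The lists here and below were chosen with earlier results of these data known, so their counts and medians describe their members and test nothing. Each count is to be read beside all genes tested, of which 19.0% were higher in intestine and 26.3% higher in skin. Among residency and ILC1 genes the list showed 13 of its 18 tested genes higher in intestine, 1 higher in skin and 4 not called (median 1.45), where 45.3% of all genes were called with a median of -0.09. The maturation and egress list had 2 of its 19 tested genes higher in intestine, 16 higher in skin and 1 not called (median -1.18). Itgae, the gene of CD103, gave 749 and 1822 in the gut cells and 175 and 105 in the skin cells. All intestine values were above all skin values, but the arrays of each tissue differed, and the difference was 1.97 on slide 1 and 3.89 on slide 2 (2.93 ± 0.35, adjusted p = 0.000113, other probes 0.82 to 3.07). Cd69 gave 6791 and 3794 in the gut cells and 1866 and 1803 in the skin cells (1.32 ± 0.20, adjusted p = 0.000579), and the skin arrays lay above the spleen arrays (511 and 539). Cxcr6, the receptor of CXCL16, gave 212 and 199.8 in intestine against 12.4 and 8.35 in skin (3.32 ± 0.14). Il21r, the IL-21 receptor, gave 410.2 and 402 in intestine against 24.1 and 28.05 in skin (3.41 ± 0.13, other probe 2.11), and Ikzf2, which encodes the transcription factor Helios, 315 and 237 in intestine against 26.6 and 12.1 in skin (3.19 ± 0.21). Rgs2, a regulator of G protein signalling, was also called (1.59 ± 0.32), but without intestine replicate 1 the difference was 1.01. Xcl1, the XCR1 ligand, was not called (20241 and 25160.00 in intestine against 15463 and 16436 in skin).

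Of the maturation genes Klrg1, an inhibitory receptor of mature cells, gave 128 and 123 in the gut cells and 629 and 562 in the skin cells (-1.96 ± 0.13). Cx3cr1, the fractalkine receptor, gave 5.32 and 13.7 in intestine against 103 and 75.1 in skin (-2.02 ± 0.19). Itgb2, the chain shared by LFA-1 and Mac-1 (-1.86 ± 0.15), the transcription factor gene Zeb2 (-1.26 ± 0.14) and Gprin3 (-2.61 ± 0.14) were higher in skin as well. Klf2, a factor that turns on S1pr1, gave 565 and 383 in intestine against 1041 and 1198 in skin (-1.15 ± 0.18, adjusted p = 0.000657). None of these genes had overlapping tissues. The 2 members called the other way were the transcription factor genes Irf8 (1.26 ± 0.18) and Ikzf3 (1.25 ± 0.15, other probe -0.11). Tbx21, the gene of T-bet, gave 653 and 669 in intestine against 555 and 658 in skin and was not called (0.14 ± 0.16, adjusted p = 0.489). Eomes gave 452 and 349 in intestine against 735 and 692 in skin and was higher in skin (-0.76 ± 0.14, adjusted p = 0.00174). Its 2 further probes stood at -0.18 and 0.61, and the call ended with the mean over its probes (-0.11).

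Homing receptors split by the tissue they are known for only in part. The list had 14 of its 28 tested genes higher in intestine, 9 higher in skin and 5 not called (median 0.44). Ccr7, the receptor for lymph node entry, gave 236 and 235 in intestine against 10.99 and 7.47 in skin (3.54 ± 0.14 on the log2 scale). Ccr9, the gut homing receptor for CCL25, was near background at 9.11 and 9.25 in intestine against -0.690 and -2.67 in skin, undetected in skin, and at least 1.10-fold higher in intestine. Itga4, the alpha chain of the gut homing integrin, gave 317 and 308 in intestine against 148 and 159.5 in skin (1.04 ± 0.14). Its partner Itgb7 gave 718 and 847 in intestine against 555 and 558 in skin (0.48 ± 0.15, adjusted p = 0.0252), a call lost without intestine replicate 2 (0.33) or either skin replicate (0.48 and 0.48). Of the receptors of skin homing, Ccr8 gave 8.40 and 13.5 in intestine against 18.8 and 11.7 in skin and was not called (-0.11 ± 0.15), and Ccr10 and Ccr4 were detected on no array (-1.81 and -3.71 in intestine and -2.72 and -2.13 in skin, and -0.0334 and -3.94 in intestine and 1.72 and -0.620 in skin, respectively). Cxcr3, a receptor for interferon-induced chemokines, was higher in skin at 627 and 572 against 101 and 116 (-2.15 ± 0.14), as was the inflammatory chemokine receptor gene Ccr2 (-1.48 ± 0.14). Cxcr4, which binds CXCL12, was higher in intestine (0.77 ± 0.17).

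**Figure D3:**
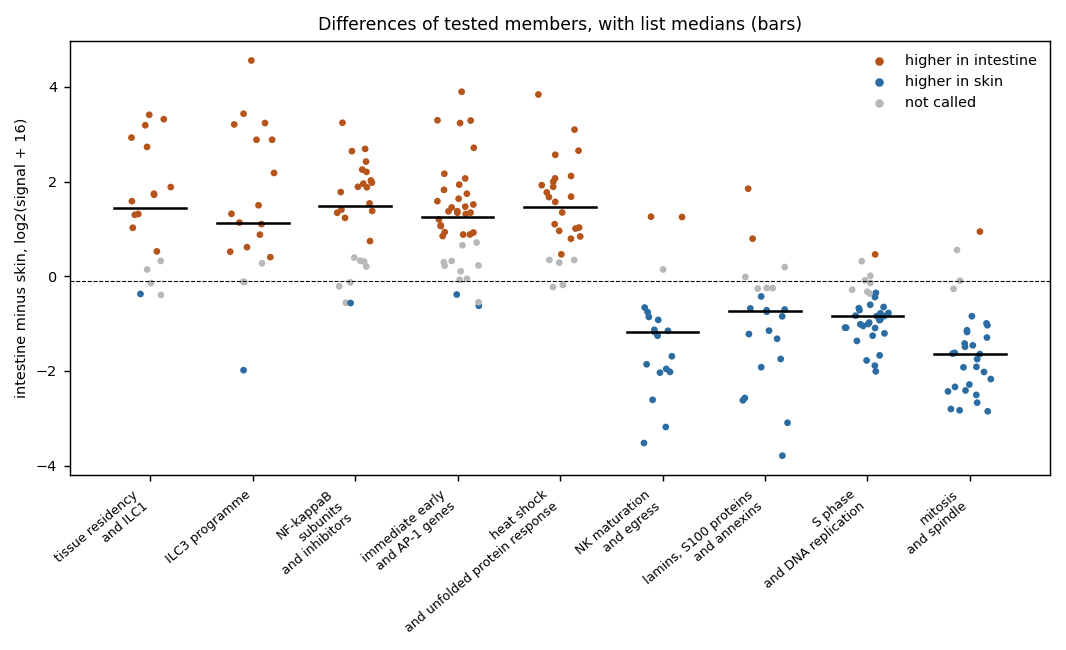
Intestine minus skin difference on the log2(signal + 16) scale for each tested member of 9 lists, coloured by call, with list medians as bars and the median of all genes (-0.09) as a dashed line. Medians lie at 1.45 for tissue residency and ILC1, 1.13 for ILC3, 1.47 for NF-kappaB, 1.26 for immediate early genes and 1.46 for heat shock, and at -1.18 for NK maturation and egress, -0.73 for lamins, S100 proteins and annexins, -0.84 for S phase and -1.64 for mitosis. The lists were chosen with earlier results of these data known.

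ILC3 genes were higher in the gut cells, with 15 of its 19 tested genes higher in intestine, 1 higher in skin and 3 not called (median 1.13). Of the 29 members on the array 7 were detected on none of the 4, Il22, Il17f, Il23r, Ccr6 and Cxcr5 among them, and Il22 gave 0.619 and -1.66 in intestine and -2.52 and -4.59 in skin. Kit, the stem cell factor receptor, gave 1404 and 1370.3 in the gut cells and 115 and 107 in the skin cells (3.44 ± 0.13, 10.8-fold). Il7r, the IL-7 receptor chain on which ILCs depend, gave 643 and 656 in the gut cells and 166 and 107 in the skin cells (2.18 ± 0.19, adjusted p = 1.61e-05). Csf2, the gene of GM-CSF, gave 724 and 732 in the gut cells and 69.2 and 62.2 in the skin cells (3.21 ± 0.13). Intestine values of these 3 genes were each several times the highest skin value. Tnfsf11, which encodes RANKL, was not detected in skin (122 and 64.9 in intestine against 1.69 and -0.526 in skin, at least 5.11-fold), and neither was Ffar2, a short-chain fatty acid receptor (80.4 and 83.2 in intestine against -3.004 and 0.444 in skin, at least 4.72-fold). Id2, needed by all ILCs, gave 2351 and 2247 in intestine against 1341 and 1538 in skin (0.61 ± 0.13, other probe 0.25), and Gpr183, an oxysterol receptor, was 0.88 ± 0.15. Ahr, the aryl hydrocarbon receptor on which gut ILC3s depend, was near background and not called (11.3 and 16.9 in intestine against 20.9 and 18.02 in skin, -0.12 ± 0.13, adjusted p = 0.500). Ramp1, a subunit of the CGRP receptor, was the 1 member higher in skin (9.29 and 18.2 in intestine against 89.4 and 129 in skin, -1.99 ± 0.20).

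Among 44 tested NK and ILC transcription factors 23 were higher in intestine and 10 in skin (median 0.54). Beside Rora and Ikzf2 those higher in intestine included Maf (1.55 ± 0.12, other probe 0.76) and Nfil3, needed for ILC and NK development (2853 and 2647 in intestine against 1068 and 1212 in skin, 1.22 ± 0.13). Ikzf1, which encodes Ikaros, was higher in skin (-1.46 ± 0.14, other probes -0.50 to -0.25), together with Klf2, Zeb2 and Eomes.

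Cytokine receptors and their signalling genes had 17 of its 32 tested genes higher in intestine, 7 higher in skin and 8 not called (median 0.51). Il4ra, the IL-4 receptor chain, gave 261 and 206 in intestine against 14.1 and 11.7 in skin (3.31 ± 0.14). Cish, a STAT5-induced inhibitor of cytokine signalling, gave 1638 and 1518 in intestine against 187 and 191 in skin (2.92 ± 0.15), and Il2ra, the high-affinity IL-2 receptor chain, was undetected in skin and at least 3.75-fold higher in intestine (70.5 and 53.9, other probes 1.24 to 1.61). Il12rb2, a chain of the IL-12 receptor (2.27 ± 0.14), and Stat3 (2.17 ± 0.13) were also higher in intestine, as was Jak2 (2.26 ± 0.17, other probe 0.04). Il18r1 (-0.98 ± 0.14, other probes -0.16 to -0.13) and Il10ra (-1.40 ± 0.14), receptors of IL-18 and IL-10, were higher in skin. Il2rb, the chain shared by the IL-2 and IL-15 receptors on which NK cells depend, was not called (588 and 861 in intestine against 682 and 708 in skin, 0.05).

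Activating NK receptors that passed the test were, with 1 exception, higher in the skin cells. Activating receptors and adaptors had 1 of its 27 tested genes higher in intestine, 15 higher in skin and 11 not called (median -0.42). Cd2, an adhesion receptor, gave 424 and 438 in the gut cells and 1567 and 1744 in the skin cells (-1.83 ± 0.14), Klrb1f 237 and 209.8 in intestine against 802 and 813 in skin (-1.67 ± 0.13, other probe -1.09) and Sh2d1a, the SLAM adaptor SAP, 198 and 188 in intestine against 534 and 513 in skin (-1.24 ± 0.13). Klrk1, the gene of NKG2D (-1.07 ± 0.15, other probes -0.66 to -0.47), the CD94 gene Klrd1 (-0.67 ± 0.16), the adaptor gene Tyrobp (-0.71 ± 0.15) and the LFA-1 chain gene Itgal (-1.15 ± 0.15) were higher in skin too, and the Klrd1 call ended without skin replicate 2. The Fc receptor gene Fcgr3 was the 1 member higher in intestine (0.57 ± 0.13). Inhibitory receptors went both ways, with 6 higher in intestine, 8 higher in skin and 2 not called (median -0.36). The Ly49 genes of that list, such as Klra3 (1723 and 1523 in intestine against 4814 and 4733 in skin, -1.51 ± 0.13) and Klra9 (-1.54 ± 0.26), were higher in skin, and since their sequences are alike, signal can pass between their probes and single genes are uncertain. Higher in intestine were the checkpoint receptors Ctla4 (402 and 429.5 in intestine against 28.1 and 47.3 in skin), Lag3 (193 and 292 in intestine against 29.5 and 23.5 in skin, 2.71 ± 0.18) and Lilrb4a (445 and 294 in intestine against 26.2 and 37.3 in skin, 3.07 ± 0.18), and Klrb1b, the NKR-P1B gene (1602 and 1569 in intestine against 388 and 351 in skin, 2.01 ± 0.14). None of these 4 had overlapping tissues.

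Cytotoxic effector genes had 2 of its 17 tested genes higher in intestine, 7 higher in skin and 8 not called (median -0.23). In all 52.9% of them were called, close to the 45.3% of all genes tested. Prf1, the perforin gene, gave 392 and 345 in the gut cells and 815 and 769.8 in the skin cells (-1.01 ± 0.13, adjusted p = 0.000163), with both skin values above both intestine values. Rab27a, which docks lytic granules (272 and 324 in intestine against 946 and 1005 in skin, -1.55 ± 0.14), the cathepsin gene Ctsd (-1.61 ± 0.13), the granule protein gene Nkg7 (-0.70 ± 0.14) and the granzyme gene Gzmm (-1.18 ± 0.14) were higher in skin. Serpinb6b, a protease inhibitor (902 and 691 in intestine against 152 and 173 in skin, 2.19 ± 0.14), and the fusion gene Stx11 (1.35 ± 0.13) were higher in intestine. Gzmb, the gene of granzyme B, was detected on none of the 4 arrays (0.196 and -2.43 in intestine and 2.55 and -0.289 in skin).

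The cytokine and chemokine list had 16 of its 28 tested genes higher in intestine, 7 higher in skin and 5 not called (median 0.45), the count in skin being 4 without skin replicate 1. Areg, which encodes the epithelial growth factor amphiregulin, gave 239.6 and 197 in the gut cells and 5.64 and 5.29 in the skin cells, where it was undetected (at least 11.04-fold). Vegfa, the vascular growth factor gene, gave 833 and 1219.8 in intestine against 136 and 143 in skin (2.71 ± 0.19), and Tnf 253 and 137 in intestine against 55.4 and 32.7 in skin (1.91 ± 0.25, adjusted p = 0.000197). Tgfb1 was 1.68 ± 0.14. The chemokine genes Cxcl10 and Cxcl2 were undetected in skin and at least 3.84 and 2.40-fold higher in intestine. Ifng, the signature cytokine gene of NK cells, gave 3829 and 2762 in the gut cells and 2036 and 1886 in the skin cells. It was called higher in intestine (0.70 ± 0.22, adjusted p = 0.0246), but the call ended without intestine replicate 1 (0.52) or without either skin replicate (0.76 and 0.63). Higher in skin were Pdgfb (48.6 and 56.8 in intestine against 556 and 510.4 in skin), the osteopontin gene Spp1 (30.6 and 46.1 in intestine against 111 and 224 in skin, -1.53 ± 0.26), Osm (-1.48 ± 0.14, other probe -0.22) and Ccl4 (12469 and 11144 in intestine against 19444 and 16966 in skin, -0.59 ± 0.15), and the last of these lost its call without skin replicate 1. Ccl3 was not called (7323 and 4461 in intestine against 6564 and 5785 in skin). Il4, near background at 10.5 and 14.3 in intestine against 5.69 and 7.99 in skin, was called (0.47 ± 0.13), but not under 6 of the alternatives.

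Immediate early genes were higher in the gut cells, with 28 of its 40 tested genes higher in intestine, 2 higher in skin and 10 not called (median 1.26). These genes are switched on within minutes to hours of receptor signalling or stress. Gadd45b, a stress sensor, gave 805 and 514 in the gut cells and 29.2 and 28.6 in the skin cells (3.90 ± 0.17). Atf3, a stress-induced factor, gave 658 and 345 in the gut cells and 40.03 and 32.6 in the skin cells (3.30 ± 0.24), Nr4a3, an orphan nuclear receptor, 713 and 417 in intestine against 33.5 and 54.5 in skin (3.29 ± 0.22), and the AP-1 partner Maff 669.9 and 412 in intestine against 34.4 and 53.99 in skin (3.24 ± 0.20). In all 4 genes intestine replicate 1 was higher than intestine replicate 2, and both were above both skin arrays. The list's median was 1.56 on slide 1 and 0.95 on slide 2, and its summed signal was 57224 to 74984 in intestine and 35143 to 35917 in skin. Myc was 1.94 ± 0.25. The AP-1 subunit gene Jun passed (243 and 237 in intestine against 147 and 115 in skin, 0.92 ± 0.25), but not without skin replicate 2, and its partner Fos did not (4311 and 2638 in intestine against 3237 and 3018 in skin, 0.10 ± 0.27, adjusted p = 0.782).

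NF-kappaB genes had 18 of its 26 tested genes higher in intestine, 1 higher in skin and 7 not called (median 1.47). The family comprises the DNA-binding subunits, the inhibitors that hold them in the cytoplasm and the targets they induce. Of the subunits, Rel gave 384 and 219.8 in the gut cells and 17.7 and 21.4 in the skin cells (3.24 ± 0.20), Nfkb1 2984 and 2449.7 in intestine against 456 and 477 in skin (2.42 ± 0.14, other probe 1.58), Nfkb2 323 and 318 in intestine against 37.2 and 41.2 in skin (2.69 ± 0.13) and Relb 199 and 164 in intestine against 29.4 and 30.1 in skin (2.25 ± 0.13). Of the inhibitors, Nfkbie was 2.64 ± 0.16, Nfkbia 1.96 ± 0.24 and the deubiquitinase gene Tnfaip3 1.34 ± 0.21. The adhesion molecule gene Icam1, a target, reached 5124 and 3516 in intestine against 860.04 and 798 in skin (2.21 ± 0.16). Tissues did not overlap in any of these 8 genes. The pathway's upstream kinase genes Ikbkb (0.39) and Chuk (0.31) were not called, and Traf2 was the 1 member higher in skin (-0.57). TNF and TNF receptor genes had 13 of its 22 tested genes higher in intestine, 2 higher in skin and 7 not called (median 0.60), led after Tnfsf11 by the death receptor gene Tnfrsf25 (139 and 163 in intestine against 19.6 and 19.3 in skin, 2.42 ± 0.16, other probe 0.84), Tnf itself and Tnfrsf1b (412 and 394 in intestine against 97.6 and 118 in skin, 1.83 ± 0.14, other probes 1.10 to 1.44). Of the BCL2 family, which sets the threshold for apoptosis, 3 near-identical A1 genes were higher in intestine, Bcl2a1b at 6201 and 6516 in intestine against 429.9 and 388 in skin (3.72 ± 0.13), Bcl2a1d (3.90 ± 0.14) and Bcl2a1a (3.85 ± 0.15), whose probes may share signal. The pro-apoptotic gene Bcl2l11 was higher there too (2.46 ± 0.18, other probe 1.58), at 1.49 without intestine replicate 1. Bid was higher in skin (-1.74 ± 0.18), Bcl2 was not called (922 and 1125 in intestine against 985 and 1086 in skin), and the family had 6 higher in intestine, 3 higher in skin and 6 not called (median 0.29).

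Sequences of 2 such promoters, from RefSeq (assembly GRCm38.p6), show the binding motif of the family upstream of genes that were themselves part of it. The motif, GGGA and TTTCC around any 1 base, was searched on both strands in windows from 250 bases before to 50 bases after each start. Of 27 windows of 20 tested members on the list 3 held it (11.1%), and these came from 2 genes. The share was 0.464% for 9699 windows of the genes tested and 0.411% for all 32851 windows, and such a match describes letters, not binding. The stretches below read along the gene's strand, with the match in capitals, at chr12:55492648-55492703 on the minus strand for Nfkbia, where it stands in reverse, and at chr19:46305680-46305741 on the plus strand for Nfkb2.
Nfkbia: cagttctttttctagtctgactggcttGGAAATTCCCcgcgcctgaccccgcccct
Nfkb2: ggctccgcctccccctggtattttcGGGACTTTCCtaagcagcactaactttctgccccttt

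Chaperones and genes of the unfolded protein response were higher in the gut cells without a member going the other way: the list had 21 of its 26 tested genes higher in intestine, 0 higher in skin and 5 not called (median 1.46). Hspa1b, an inducible HSP70 gene, gave 218 and 236 in the gut cells and 5.96 and 1.18 in the skin cells, where it was undetected (at least 11.4-fold, other probe 0.96). Its near-identical neighbour Hspa1a gave 98.2 and 149 in intestine against 23.6 and 1.92 in skin (2.57 ± 0.43, 1.71 on slide 1 and 3.43 on slide 2). Both were high on the spleen arrays too (89.7 and 167 for Hspa1b, 109 and 286 for Hspa1a). Hsph1, an HSP70 partner, gave 1882 and 2094 in the gut cells and 297 and 288 in the skin cells (2.65 ± 0.14), with 249 and 265 in spleen. The mitochondrial chaperonin genes Hspe1 (361 and 349 in intestine against 81.9 and 83.9 in skin, 1.998 ± 0.13) and Hspd1 (1.57 ± 0.13), the HSP90 gene Hsp90aa1 (2.07 ± 0.13) and the co-chaperone gene Dnajb6 (1.93 ± 0.14) were higher in intestine. So were genes of the endoplasmic reticulum branch, Trib3 (105 and 75.6 in intestine against -4.15 and -1.16 in skin, at least 5.08-fold), Ddit3 (839 and 669 in intestine against 167 and 161 in skin, 2.12 ± 0.13) and the BiP gene Hspa5 (1.77 ± 0.22). Oxidative stress genes had 14 higher in intestine, 4 higher in skin and 6 not called (median 0.53). The count in skin was 0 without skin replicate 1 or either spleen replicate, and 2 without any 1 of the other arrays. After Osgin1 they were led by Sqstm1, an autophagy receptor (5849.7 and 4083 in intestine against 848 and 831 in skin, 2.37 ± 0.17), the peroxiredoxin gene Prdx6 (1.64 ± 0.23, other probes 0.63 to 2.17) and the metallothionein gene Mt1 (236 and 122 in intestine against 34.8 and 62.6 in skin, 2.41 on slide 1 and 1.001 on slide 2).

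Heat shock factor binds inverted repeats of GAA, searched here on both strands as 3 alternating units, GAA or TTC, with any 2 bases between them. Of 26 windows of 21 tested members of the list 6 held one (23.1%), and these came from 4 genes. The share was 0.598% for windows of all genes tested and 0.603% for all windows. Hspe1 and Hspd1 share the stretch between their starts, so they count the same letters, and only Hspe1 is shown, at chr1:55088032-55088098 on the plus strand. Dnajb6 lies at chr5:29735825-29735891 on the plus strand. The matched letters are in capitals.
Hspe1: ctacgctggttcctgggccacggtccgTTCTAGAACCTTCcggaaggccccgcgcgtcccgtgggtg
Dnajb6: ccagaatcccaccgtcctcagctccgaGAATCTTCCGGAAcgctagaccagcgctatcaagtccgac

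Cell division genes that passed the detection filter were mostly higher in the skin cells, although some passed it through skin alone. The mitosis and spindle list had 1 of its 30 tested genes higher in intestine, 26 higher in skin and 3 not called (median -1.64), and the S phase list 1 of its 35 tested genes higher in intestine, 27 higher in skin and 7 not called (median -0.84). Birc5, which encodes survivin of the chromosomal passenger complex, gave 12.7 and 6.94 in the gut cells and 193 and 154 in the skin cells (-2.85 ± 0.19). Nusap1, a spindle protein gene, gave 18.4 and 16.3 in the gut cells and 221 and 257 in the skin cells (-2.83 ± 0.15). Cdca3, a trigger of mitotic entry, gave 40.5 and 33.97 in the gut cells and 407 and 382 in the skin cells (-2.81 ± 0.14), and the kinesin gene Kif22 6.16 and 1.59 in intestine against 111 and 108 in skin (-2.67 ± 0.16). Both skin arrays were above both intestine arrays for each, and the spleen arrays lay between at 54.9 and 60.2, 81.97 and 103, 99.6 and 116 and 30.3 and 32.7. The proliferation marker Mki67 (34.6 and 19.4 in intestine against 232 and 262 in skin, -2.51 ± 0.21), the mitotic kinase genes Plk1 (-2.41 ± 0.15) and Cdk1 (-1.92 ± 0.16) and the anaphase gene Cdc20 (-1.64 ± 0.16, other probes -1.14 to -0.98) were higher in skin as well. Cenpa, the centromere histone gene, was the 1 mitotic member higher in intestine (1462 and 1538 in intestine against 730.3 and 760.1 in skin, 0.94 ± 0.14).

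Of the replication genes, Tk1, a thymidine kinase, gave 9.13 and 14.7 in intestine against 106 and 95.1 in skin (-2.01 ± 0.14). Rrm2, a subunit of ribonucleotide reductase, was -1.89 ± 0.25 with another probe at -0.43, and Uhrf1, which keeps DNA methylation through replication, was 83.9 and 63.5 in intestine against 311 and 337 in skin (-1.78 ± 0.15). The polymerase gene Pole (-1.67 ± 0.25) and the replicative helicase genes Mcm5 (241 and 229 in intestine against 691 and 672 in skin, -1.37 ± 0.13) and Mcm6 (-0.84 ± 0.15) were higher in skin too, and Pcna was not called (39.4 and 19.6 in intestine against 43.5 and 28.4 in skin, -0.09). Many of the mitotic genes were near background in intestine: 17 of the 45 on the array were detected on both intestine arrays and 30 on both skin arrays. Of the 40 S phase genes on the array 27 were detected on both intestine arrays and 35 on both skin arrays. Part of each list thus entered the counts only through skin, where those genes are high. With genes detected on all 4 arrays alone, 13 mitotic members were called higher in skin. Brakes on the cycle were partly higher in intestine. Cdkn1a, the p21 gene, gave 1108 and 712 in the gut cells and 60.5 and 61.9 in the skin cells (3.57 ± 0.18), and Cdkn1c, the p57 gene, 172 and 92.7 in intestine against 31.6 and 24.8 in skin (1.85 ± 0.22), while Cdkn2c, the p18 gene, was higher in skin (-1.28 ± 0.18, other probe -0.71), as was the D-type cyclin gene Ccnd3 (-0.87 ± 0.15, other probe -0.33). With Cables1 and Ccng2 (1.37 ± 0.14) the cyclins and their inhibitors had 9 higher in intestine, 6 higher in skin and 6 not called (median -0.18).

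Promoters of mitotic genes are known for the cell cycle homology region TTTGAA (reverse TTCAAA), a known repressor site outside division, and the CCAAT box. In the same 300-base windows TTTGAA was found on either strand, each window counted once, in 21 of 27 windows of 26 tested mitotic members (77.8%), against 12.5% for all genes tested and 17.9% for all windows. CCAAT stood in 22 of them (81.5%), against 37.3% and 37.4%. S phase genes held TTTGAA in 3 of 34 windows (8.82%) and CCAAT in 18 (52.9%). There the E2F motif, TTTCGCGC or TTTGGCGC, stood in 9 of 34 (26.5%), against 1.63% and 0.813%. The mitotic examples, with the region in capitals, are Kif22 at chr7:127042421-127042464 on the minus strand, Mki67 at chr7:135716445-135716504 on the minus strand, which holds a further copy in lower case, Cdk1 at chr10:69352913-69352954 on the minus strand and Cdc20 at chr4:118437344-118437388 on the minus strand.
Kif22: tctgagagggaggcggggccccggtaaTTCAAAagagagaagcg
Mki67: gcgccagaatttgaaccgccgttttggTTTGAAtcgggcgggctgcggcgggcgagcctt
Cdk1: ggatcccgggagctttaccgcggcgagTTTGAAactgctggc
Cdc20: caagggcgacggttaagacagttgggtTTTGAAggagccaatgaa
The S phase examples, with the E2F motif in capitals, are Uhrf1 at chr17:56304101-56304162 on the plus strand, Mcm5 at chr8:75109329-75109390 on the plus strand and Mcm6 at chr1:128359718-128359779 on the minus strand.
Uhrf1: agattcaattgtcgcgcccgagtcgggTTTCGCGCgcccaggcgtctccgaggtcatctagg
Mcm5: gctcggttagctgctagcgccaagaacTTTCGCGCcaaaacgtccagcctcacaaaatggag
Mcm6: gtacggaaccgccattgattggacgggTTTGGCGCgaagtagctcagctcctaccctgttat

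The lamin, S100 protein and annexin list had 2 of its 22 tested genes higher in intestine, 15 higher in skin and 5 not called (median -0.73), and the list summed to 15223 to 15590.1 in intestine and 40782 to 43431 in skin. It also held genes outside these families, the galectin gene Lgals1 among them. Beside S100a4 and S100a6 (753 and 1241 in the gut cells and 8820.3 and 8646 in the skin cells), Lgals1, the galectin-1 gene, gave 779.7 and 751 in intestine against 5306 and 4811 in skin (-2.62 ± 0.14), Anxa1, an anti-inflammatory annexin, 9.53 and 7.92 in intestine against 141 and 124 in skin (-2.57 ± 0.21, other probe -1.07) and the intermediate filament gene Vim 2338 and 1747 in intestine against 8049.7 and 7170.1 in skin (-1.92 ± 0.15, other probe -1.27). Anxa2 was -1.15 ± 0.13. Emd, which encodes emerin of the inner nuclear membrane, and Lmnb1, a lamin gene, went the other way (1.85 ± 0.15 and 0.79 ± 0.20). The Lmnb1 call was lost with the mean over probes, and its difference was 0.47 without intestine replicate 1.

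Triglyceride and cholesterol genes had 16 of its 28 tested genes higher in intestine, 6 higher in skin and 6 not called (median 0.62). Beside Dgat1, those higher in intestine included the sterol synthesis enzymes Cyp51 (494 and 482 in intestine against 74.7 and 71.2 in skin, 2.54 ± 0.13) and Sqle (155 and 194 in intestine against 36.9 and 18.5 in skin, 2.29 ± 0.21) and Srebf2, the factor that induces them (2.04 ± 0.16). The fatty acid synthase gene Fasn was higher in skin (312 and 340.1 in intestine against 498 and 523 in skin, -0.55 ± 0.13). Glycolysis and hypoxia genes showed no common direction, with 8 higher in intestine, 9 higher in skin and 12 not called (median -0.14), and 5 higher in intestine without intestine replicate 1. Hk2 (1259 and 875 in the gut cells and 39.9 and 52.5 in the skin cells) and the hypoxia-inducible factor gene Epas1 (undetected in skin, at least 2.05-fold) were higher in intestine, and Eno1 (-0.92 ± 0.14) and Ldha (-0.53 ± 0.13) of lower glycolysis were higher in skin. Of 50 oxidative phosphorylation genes 36 were not called, 11 were higher in skin and 3 in intestine (median -0.18), and the count in skin fell to 4 without either skin replicate, 5 without intestine replicate 1 and 7 without either spleen replicate. In all 28% of the oxidative phosphorylation genes were called, against 45.3% of all genes tested. Uqcrb (1.37 ± 0.20, other probe 0.37) and Ndufa6 (0.79 ± 0.15) were higher in intestine, Ndufs5 (-0.66 ± 0.14) and Ndufa4 (-0.65 ± 0.14) in skin. Of 75 cytosolic ribosomal protein genes 63 were not called and 12 were higher in intestine, among them Rpl36 (0.61 ± 0.14), Rpl22 (0.56 ± 0.14) and Rps19. The Rps19 probe was near background on every array (7.86 and 12.9 in intestine against 1.60 and 2.60 in skin) and undetected in skin (at least 1.15-fold). The 12 calls made up 16% of that list, below the 19.0% of all genes tested that were higher in intestine. The count of 12 became 6 without skin replicate 1 and 7 without skin replicate 2 or intestine replicate 1.

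Cyclic AMP genes had 12 of its 22 tested genes higher in intestine, 6 higher in skin and 4 not called (median 0.59), the count in skin being 3 without skin replicate 2. Crem gave 1161 and 980.1 in the gut cells and 28.1 and 46.7 in the skin cells. The phosphodiesterase genes Pde4b (1103 and 913 in intestine against 182 and 245 in skin, 2.19 ± 0.15, other probes 1.10 to 1.28) and Pde4d (undetected in skin, at least 5.62-fold) break the messenger down and were higher in intestine. Adcy7, a cyclase that makes it, was higher in skin (96.8 and 115 in intestine against 464 and 435 in skin, -1.78 ± 0.14, other probes -0.88 to -0.12). The cyclic AMP response element was searched in the same promoter windows as the motifs above. It stood in 7.14% of 42 windows of tested immediate early members and 5.13% of 39 windows of tested cyclic AMP members, the latter from 1 gene. Among windows of all genes tested the share was 3.08%. Clock genes had 8 higher in intestine, 2 higher in skin and 4 not called (median 0.86). Beside Rora, the repressor genes Bhlhe40 (3837 and 4268 in intestine against 1253 and 1534 in skin, 1.46 ± 0.16) and Nr1d2 (1.38 ± 0.17) were higher in intestine and Per2 was higher in skin (32.5 and 34.2 in intestine against 71.2 and 75.6 in skin, -0.70 ± 0.12). Glucocorticoid targets had 9 higher in intestine, 0 higher in skin and 9 not called (median 0.56), among them Errfi1 (559 and 484 in intestine against 153 and 153 in skin, 1.70 ± 0.13) and Klf9 (511 and 269.9 in intestine against 117 and 126 in skin, 1.55 ± 0.22, other probe 1.03), whereas the widely used targets Tsc22d3 (-0.01) and Fkbp5 (-0.02) were not called.

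Targets of AhR, retinoids and vitamin D had 5 of its 10 tested genes higher in intestine, 1 higher in skin and 4 not called (median 0.33), and their median fell to -0.04 among genes detected on all 4 arrays. Without intestine replicate 2 or either skin replicate 3 of them were called higher in intestine. The AhR repressor gene Ahrr (19.3 and 24.9 in intestine against -2.81 and 3.46 in skin, at least 1.80-fold), the retinal reductase gene Dhrs3 (at least 1.72-fold) and Tgm2, a transglutaminase (147 and 152 in intestine against 7.17 and 11.3 in skin, 2.97 ± 0.14), were higher in intestine. Cd38 was close to the threshold (0.59 ± 0.21, adjusted p = 0.0438), and was 0.25 without intestine replicate 2 and 0.96 without intestine replicate 1. TGF-beta genes had 10 higher in intestine, 4 higher in skin and 9 not called (median 0.09), with a median of -0.04 under the deposited scaling and -0.10 without intestine replicate 2. Their count in skin was 2 without either spleen replicate or intestine replicate 1. The repressor gene Tgif1 (792 and 528 in intestine against 76.3 and 84.8 in skin, 2.80 ± 0.16, other probes 1.55 to 2.80), the target Pmepa1 (1.46 ± 0.13) and the ubiquitin ligase gene Smurf2 (1.31 ± 0.13, other probes 0.44 to 0.83) were higher in intestine.

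Interferon-stimulated genes split, with 8 higher in intestine, 13 higher in skin and 11 not called (median -0.21), and 6 higher in skin without skin replicate 1. Isg15 (535 and 389.6 in intestine against 51.7 and 70.9 in skin, 2.68 ± 0.16), Isg20 (1.76 ± 0.19) and the GTPase gene Igtp (1.26 ± 0.15) were higher in intestine, and Ifit2 was higher in skin (22.5 and 24.8 in intestine against 73.03 and 89.1 in skin, -1.16 ± 0.14). Class II antigen presentation genes had 5 of 14 tested genes higher in intestine, 3 higher in skin and 6 not called (median 0.20). In all 57.1% of them were called, against 45.3% of all genes tested. H2-Ab1 (369 and 285 in intestine against 116 and 106 in skin, 1.51 ± 0.16), H2-Eb1 (1.29 ± 0.13), H2-Aa (1.03 ± 0.16) and the invariant chain gene Cd74 (233 and 161 in intestine against 119.7 and 116 in skin, 0.79 ± 0.16) were higher in intestine. The part of macrophages and dendritic cells in this result was not tested. Cd83, a surface molecule of activated cells, gave 537 and 529.9 in intestine against 37.5 and 39.8 in skin (3.37 ± 0.12), and the costimulatory gene Cd86, undetected in intestine, was at least 1.69-fold higher in skin. Surface glycan enzymes had 7 higher in intestine, 10 higher in skin and 6 not called (median -0.27), a median that became 0.04 without intestine replicate 1. Gcnt2, B3galt5 and Mgat4a (487 and 515 in intestine against 121 and 118 in skin, 1.98 ± 0.13) were higher in intestine and the heparan sulfate enzyme gene Extl3 (159.5 and 197 in intestine against 659 and 622 in skin, -1.63 ± 0.15) in skin.

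**Figure D4:**
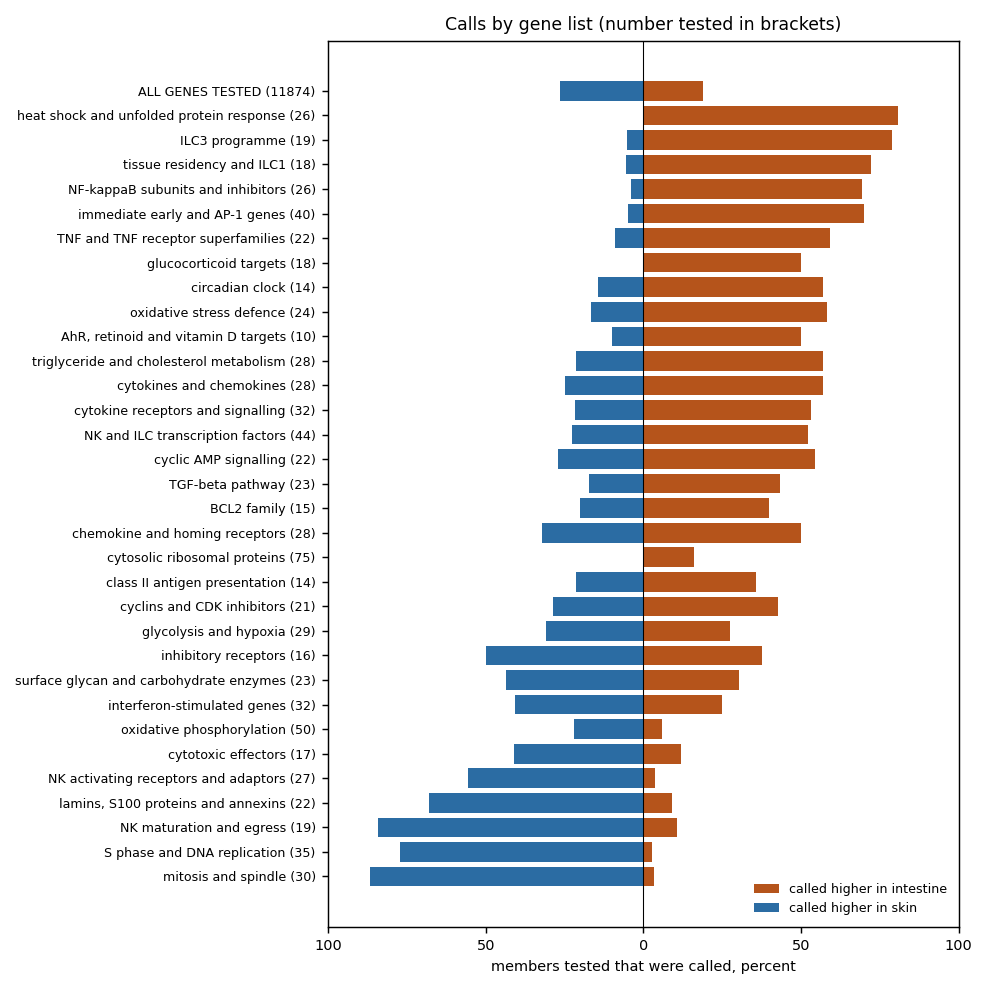
Share of tested members called higher in intestine (right) and higher in skin (left), in percent, for 32 lists of functions with the number tested in brackets, and for all 11874 genes tested at the top (19.0% and 26.3%). Lists are ordered by the difference of the shares, from heat shock at the top, with 21 of 26 members higher in intestine, to mitosis at the bottom, with 26 of 30 higher in skin. They were chosen with earlier results of these data known.

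The spleen arrays, sorted the same way, placed each barrier tissue beside a common reference. Differences against spleen come from the same fit, and those of intestine and of skin are set side by side without comparison since both share the spleen arrays. Rora was 3.81 ± 0.19 in intestine and -0.75 ± 0.19 in skin, with spleen signals of 108 and 157, and Kit was 2.41 ± 0.13 in intestine and -1.02 ± 0.13 in skin. Both genes were higher than in spleen in the gut cells and lower in the skin cells, with adjusted p up to 0.0227. Itgae was 3.79 ± 0.35 in intestine and 0.86 ± 0.35 in skin, and the second of these did not pass (adjusted p = 0.0938). Cd69 was 3.24 ± 0.20 and 1.93 ± 0.20, higher than in spleen in both. S1pr5 was -5.24 ± 0.15 in intestine and -2.05 ± 0.15 in skin, lower in both, while Klf2 was -1.31 ± 0.18 in intestine and -0.16 ± 0.18 in skin, the second of which did not pass (adjusted p = 0.551). Mki67 was -0.73 ± 0.21 and 1.78 ± 0.21, and S100a4 was -2.04 ± 0.16 and 1.75 ± 0.16, both on opposite sides of spleen.

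Of 167 genes named by rule 162 were called, 112 higher in intestine and 50 higher in skin. Each of these had the same sign on slide 1 and slide 2, which follows wherever the arrays of the tissues do not overlap and is a description only. Sizes differed for genes whose arrays were spread, such as Itgae, Hspa1a and Mt1, whose values by slide are given above. Klf2 was -0.85 on slide 1 and -1.46 on slide 2, Cd69 1.64 and 0.99, and Rora 4.75 and 4.37.

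**Figure D5:**
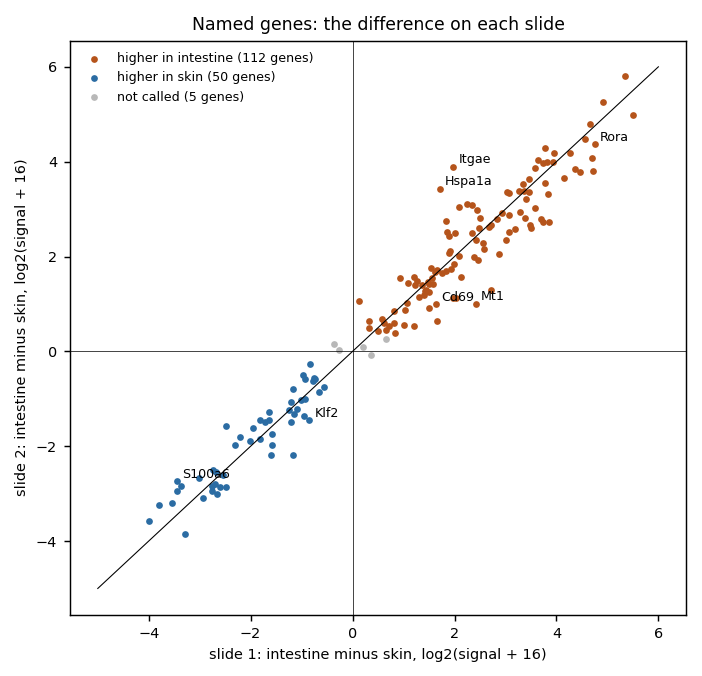
Intestine minus skin difference on slide 1 (horizontal axis) and slide 2 (vertical axis), in log2(signal + 16), for 167 named genes, coloured by call, with the line of equal difference. All 162 called genes lie in the quadrants of one sign, and Itgae and Hspa1a lie above the line of equal difference and Rora below it.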

How the data were processed

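NKp46+ cells sorted from intestine, skin and spleen were hybridised in duplicate to Illumina mouse bead arrays. Per the labels' protocols, RNA was isolated with the RNeasy Micro Kit and amplified with the Illumina TotalPrep kit, and BeadStudio 1.5.1.3 is named in the submitters' processing notes. The deposited values are background-subtracted bead intensity per probe, scaled by the authors to 1 mean per array (30.7 to 32.7% of probes below 0), and a detection p-value per probe, per the file headers. From the deposited intensity, log2(intensity + 16) was quantile normalized over the 6 arrays. Probes needed a detection p under 0.01 on both arrays of intestine or of skin (15555 of 46643), with 1 probe per gene, that of the highest mean (11874 genes, 2754 with several). A fit in limma 3.58.1 (R 4.3.3) with a mean per tissue (3 residual degrees of freedom) gave moderated tests, adjusted by Benjamini-Hochberg over all genes, and was tested on simulated data. Symbols were updated through RefSeq: 20147 probes carried a current symbol, 12989 an older one, 199 an ambiguous one, 11581 a name not in the table, kept as in the file, and 1727 none.

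Genes were named by rule: the 14 largest differences each way whose tissues did not overlap, the 4 largest called members of each of 43 lists, and 25 fixed genes. Some genes that the rule names are not reported here. Other genes, and the promoters printed, were chosen with their values in sight. The comparison and the lists were chosen with earlier results of these data known. Same-slide arrays deviated together (correlations 0.107, 0.160 and 0.225), so the slide pairs the samples. Alternatives were median scaling, the deposited scaling alone, the series table, offsets of 4 and 64, other detection filters, the mean over probes, no spleen arrays, an intensity trend, the slide as a block, each slide alone and each array left out.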

Additional observations from a re-analysis of the deposited data

How the results depend on the processing

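The number of called genes was 4030 to 5695 when 1 array was left out at a time. The count at 2-fold or more went from 1537 to 2354 with an offset of 4 and to 690 with an offset of 64. Toward skin it went from 703 to 1196 and 262, and toward intestine from 834 to 1158 and 428. Skin thus exceeded intestine with the offset of 4, as with median scaling (853 against 727) and the deposited scaling alone (944 against 682). Median scaling called 5654 genes, 33.9% of them higher in intestine, and moved the median of all genes to -0.17. The slide, which the replicate number follows, was also fitted as a replicate block: 5752 genes were then called, 5380 of the 5381 among them, and of the named genes Rag2 alone gained a call, so the block changed no other call among the named genes. Of 162 called genes named by rule 154 to 162 kept their call under each alternative that tested all of them, and none turned sign. Calls were lost by Cd38, Il4, Col6a2, Lgals4, Ifng, Itgb7, Eomes, Slc11a1 and Ncr1, among others. Of the 5 uncalled genes, Ptprc (0.15) became -0.016 with the deposited scaling, -0.25 with the mean over probes and -0.00263 to 0.30 with 1 array left out, and Ccr8 (-0.11) ran from -0.27 to 0.048 in the same way. The cause was not tested. Of 32 function lists 29 kept the sign of their median under all 19 settings; the others were the AhR, TGF-beta and glycan lists. Signals near background and 2 arrays per tissue limit what can be seen of dim genes.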

Other observations

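Histone genes, which lie outside the lists above and were looked at after their values were seen, differed by class. Of 15 H2A cluster genes tested 12 were higher in skin and 3 in intestine (median -1.98), led by H2ac11 (-2.64 ± 0.13, 1099 and 977 in intestine against 7323 and 6363 in skin). Of 14 H2B genes 10 were higher in skin, 1 in intestine and 3 were not called (median -0.76). H1, H3 and H4 genes had 8 of 22 higher in intestine, 3 in skin and 11 not called (median 0.37). Genes of a class are nearly identical in sequence, so their probes may share signal and do not count as separate measurements. All 13 Ly49 (Klra) genes tested were higher in skin, by -1.93 to -1.05, with the same limit.

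Parts of the CGRP and amylin system differed in direction. Beside Calca, the receptor partner Ramp3 was higher in intestine (135 and 127 in intestine against 10.1 and 8.30 in skin, 2.80 ± 0.13), Ramp1 was higher in skin (-1.99 ± 0.20), and their shared receptor gene Calcrl was not called (0.31). Other large differences toward intestine outside the lists were in Hic1, a transcriptional repressor undetected in skin (at least 9.62-fold), the transferrin gene Trf (942 and 694 in intestine against 50.9 and 49.4 in skin, 3.65 ± 0.14), Asb2, a ubiquitin ligase subunit (1399 and 1963 in intestine against 107 and 151 in skin, 3.50 ± 0.21), and Hilpda, a lipid droplet protein gene (609 and 691 in intestine against 48.6 and 67.6 in skin, 3.22 ± 0.16). The ecto-5'-nucleotidase gene Nt5e, which makes adenosine (90.3 and 141 in intestine against 7.47 and 13.2 in skin, 2.54 ± 0.23, detected on 1 of 2 skin arrays), and Pdcd1lg2, which encodes a PD-1 ligand (183 and 174 in intestine against 18.9 and 24.9 in skin, 2.55 ± 0.14), were higher in intestine too. The gamma chain segment Trgv4 gave 129 and 196 in intestine against 2.19 and 7.75 in skin (3.31 ± 0.22), in mice without antigen receptor rearrangement, and 1 of 2 skin arrays detected it. These genes were chosen with their values in sight.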
